A study of Drosophila melanogaster with 8 samples.

Results

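The 5p arms of the paralogous hairpins mir-281-1 and mir-281-2, named mir-281-1-5p and mir-281-2-5p, were followed through 8 small RNA libraries of S2 cells, a long-established Drosophila line that was derived from embryos. They are 2 of 271 hairpin arms in the deposited tables. They were chosen by name, on the basis of measured values in these same libraries: their length shares, their abundances and the start positions listed for them. All of those values are therefore given as a description, with no test. RNA of 18 to 30 nt had been size-selected and cleared of 2S rRNA before adapter ligation, per the labels' protocols. The labels describe 4 genotypes of 2 samples each, namely wild type, nbrKO, nbrKO with wild-type Nbr (nbrWT) overexpressed, and nbrKO with a catalytically inactive Nbr (nbrCM) overexpressed. The tables name the libraries by the numbers 81154 to 81161, of which 0 of 8 occur in the labels. No library was therefore given a genotype, and every value below stands for a single library or for the median and range of the 8. Series of 8 values follow the library numbers, from 81154 to 81161.

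A microRNA (miRNA) hairpin is cut by Drosha and then by Dicer, which leaves a duplex of a 5p and a 3p arm. In most hairpins one arm, the guide, is kept in an Argonaute protein and the other, the star or passenger arm, is lost. The 5' end of an arm sets its seed, the stretch of bases 2 to 8 that leads target recognition, so a start moved by a single base gives another seed. The 3' end does not set the seed and can be shortened after loading. In flies the exoribonuclease Nibbler (Nbr) does this for some miRNAs, which is the activity the study set out to examine.

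Both hairpins lie on the minus strand of chromosome 2R in dm6, with 128 bases between them. In the BDGP6 annotation mir-281-1 spans 12170373 to 12170462 and mir-281-2 spans 12170153 to 12170244. Both sit within an intron of Oda, the ornithine decarboxylase antizyme gene, on the same strand. Both also overlap an exon of the non-coding RNA asRNA:CR46194. The gene IDs listed for the hairpins in the tables (FBgn0262394 and FBgn0262423) were absent from that annotation, so the match was made by symbol.

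The start positions listed for the arms differed by 1 base. The mir-281-1-5p reads began at position 14 of their hairpin and the mir-281-2-5p reads at position 15 of theirs, and each arm had 1 line in the tables. A second start within the same hairpin, of the kind the tables list for 18 other arms, was not among the lines for either arm. The difference in start is thus one between the lines listed for the paralogs and not between lines of a single arm. Both starts equal the annotated ones, where mir-281-1-5p occupies positions 14 to 36 (12170427 to 12170449, 23 nt) and mir-281-2-5p positions 15 to 36 (12170209 to 12170230, 22 nt).

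The tables print the first 8 letters of each arm. Letters 2 to 8 of mir-281-1-5p were the same as letters 1 to 7 of mir-281-2-5p, and this stretch of 7 bases began at position 15 in both hairpins. The loop is listed at position 37 in both. Position by position, 6 of the 8 letters differed, and the seeds (bases 2 to 8) were different words. The 5p arms were not compared beyond these letters, so which hairpin a 5p read came from was not checked. Of all other lines in the tables, 0 carried the seed of mir-281-1-5p and 0 that of mir-281-2-5p. The tables also list 3 T bases for each of the 5p arms.

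The 3p arm, which the authors mark as mature while both 5p arms are marked star, behaved otherwise. Its reads were listed in full at both loci, from position 58 of mir-281-1 and position 60 of mir-281-2, and the lines were identical in every library and at every length. A 3p read therefore carries no information on which hairpin it came from, and the arm is treated below as a single miR-281-3p. Among 11 sets of arms whose names differ only in the locus number, 7 had the same first letters at all loci, and 4 had different ones. The 4 were all 5p arms, those of miR-281, miR-2a, miR-2b and miR-13b. Total reads at the loci lay within 1.1 times of each other in the 7 sets with the same letters. In 3 of these sets, miR-281-3p among them, the reads were identical at every locus. Where the same reads can be listed at several loci, near-equal totals do not show that the loci were equally active. In the 4 sets with different letters the totals did not lie that close. There mir-281-2-5p had 4.54 times the reads of mir-281-1-5p, the smallest ratio of the 4. The ratio between the loci was 6.06 for miR-2a-5p, 177 for miR-2b-5p and 2020 for miR-13b-5p.

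mir-281-1-5p was the rarer of the paralogs. Its levels, in reads per 1000000 small RNA reads (RPM), were 21.1, 18.8, 18.5, 15.4, 11.0, 11.1, 7.75 and 6.82. These stood for 117 to 609 reads, the fewest in library 81161. The levels of mir-281-2-5p were 98.0, 93.2, 74.4, 72.9, 51.7, 47.2, 33.8 and 33.1 RPM, or 568 to 2487 reads. Both arms were thus highest in 81154 and lowest in 81161, and the lowest value of mir-281-2-5p exceeded the highest of mir-281-1-5p.

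**Figure D1:**
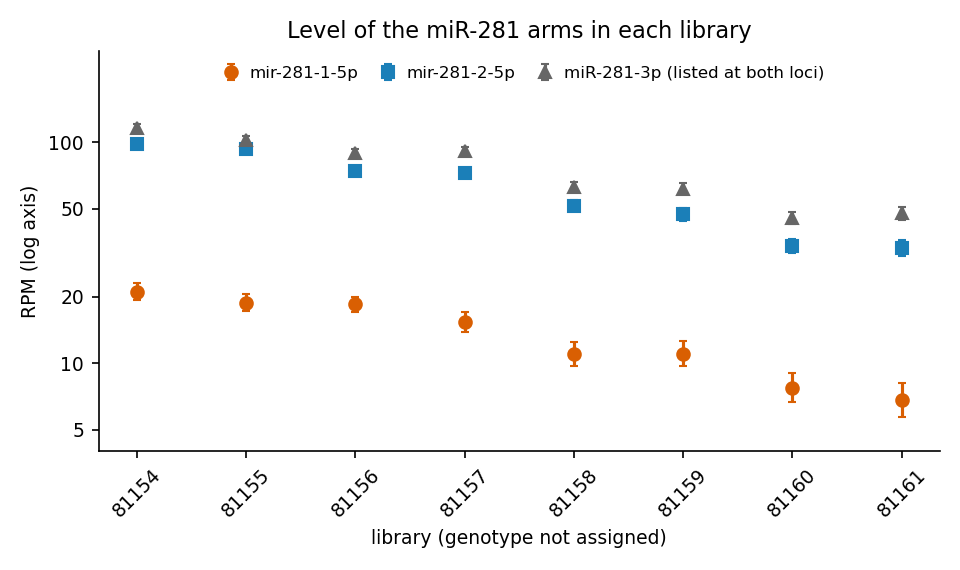
Level of mir-281-1-5p, mir-281-2-5p and miR-281-3p (RPM, log axis) in each of the 8 libraries, with bars for the 95% counting interval. All 3 sets of points drop together from library 81154 to libraries 81160 and 81161, which are shown in the order of their numbers.

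The highest library exceeded the lowest by 3.09-fold for mir-281-1-5p (95% counting interval 2.53 to 3.78) and by 2.96-fold for mir-281-2-5p (2.70 to 3.24). The tables hold 100 arms that averaged 10 RPM or more and had reads in all libraries, repeated loci counted once. Of these, 30 (30%) spanned 2-fold or more, and both arms were among them, in places 7 and 8. The median span was 1.61-fold. The arms nearest that limit were miR-276a-3p just inside at 2.00-fold and miR-4961-5p just outside at 1.93-fold. Since the arms were chosen with these abundances known, nothing is read from their place. The libraries also differ in total, from 17145872 to 32958242 small RNA reads, with miRNA shares of 34.7 to 44.3%. The 4 libraries with the highest totals, 81154 to 81157 (24173855 to 32958242 reads), also had the highest levels of both arms. Library 81161, with the lowest total, had the lowest. Levels did not follow the totals throughout. The total of 81158 (24060438 reads) was close to that of 81154 (24173855). Its levels were 11.0 RPM against 21.1 for mir-281-1-5p and 51.7 RPM against 98.0 for mir-281-2-5p. Library 81156, with the highest total, had 18.5 and 74.4 RPM, below 81154. The part of depth in the levels was not tested.

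The proportion between the paralogs moved little. Reads of mir-281-1-5p per read of mir-281-2-5p numbered 0.215, 0.202, 0.248, 0.211, 0.213, 0.235, 0.229 and 0.206. The median was 0.214, and the highest exceeded the lowest by 1.23-fold, against spans near 3-fold for each arm alone. The exact 95% counting interval was 0.183 to 0.222 in library 81155, the lowest, and 0.227 to 0.271 in library 81156, the highest. This ratio is taken within a library and needs no scaling.

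miR-281-3p followed the same course. It had 116.7, 102.6, 90.0, 91.6, 63.0, 61.7, 45.7 and 47.8 RPM, a span of 2.55-fold (interval 2.38 to 2.75). Its level was close to the sum of the 5p arms. Summed 5p reads per 3p read were 1.02, 1.09, 1.03, 0.964, 0.995, 0.944, 0.911 and 0.835. The exact interval lay above 1 in 81155 (1.04 to 1.15) and below 1 in 81160 (0.832 to 0.997) and 81161 (0.754 to 0.926), and included 1 in the other 5. Once the paralogs were added, the arms called star thus stood at 0.835 to 1.09 times the level of the arm called mature.

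Ratios near 1 were uncommon in the tables when each hairpin was taken on its own, without summing paralogs. Over 57 hairpins with both arms listed and at least 10 RPM of the mature arm, the median ratio of star to mature was 0.0385, and 4 hairpins reached 0.5. These were mir-9c with 0.986, mir-281-2 with 0.808, mir-190 with 0.571 and mir-307a with 0.502. The value of mir-281-2 and that of mir-281-1, 0.177, each set the 5p reads listed at a single locus against all 3p reads of both loci. With the 5p reads taken as listed, neither can therefore exceed the ratio that the 3p reads of its own hairpin alone would give. Other repeated loci were left unsummed too, as in mir-2b-1 with a ratio of 0.000627. Its star arm averaged 9.13 RPM, while mir-2b-2-5p, at the other locus, averaged 1554 RPM.

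In abundance the arms most like mir-281-1-5p over the 8 libraries were miR-33-3p, with Pearson's r = 0.988 on log2 RPM, mir-281-2-5p with 0.986 and miR-281-3p with 0.981. For mir-281-2-5p they were miR-281-3p with 0.994, miR-33-3p with 0.987 and mir-281-1-5p with 0.986. miR-33-3p, the star arm of its hairpin, was far more abundant, with a median of 1654 RPM against 13.2 and 62.3. These coefficients describe 8 libraries, in which all arms of a library share its depth and scaling, and carry no test.

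Reads of 23 nt were the most common in both arms and in 8 of 8 libraries. For mir-281-1-5p the share of 23 nt reads had a median of 60.0% and ran from 44.8% in library 81155 (95% Wilson interval 40.5 to 49.2%) to 67.5% in library 81161 (58.6 to 75.3%). For mir-281-2-5p the median was 64.3%, between 60.9% in library 81155 (58.9 to 62.8%) and 67.3% in library 81157 (65.0 to 69.4%). The next most common length in the median library was 22 nt, with 17.9% for mir-281-1-5p and 22.5% for mir-281-2-5p. Reads of 24 nt or longer made up 9.58% and 6.97%. The lengths thus peaked at the same value, but the tail of short reads was heavier in mir-281-1-5p.

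**Figure D2:**
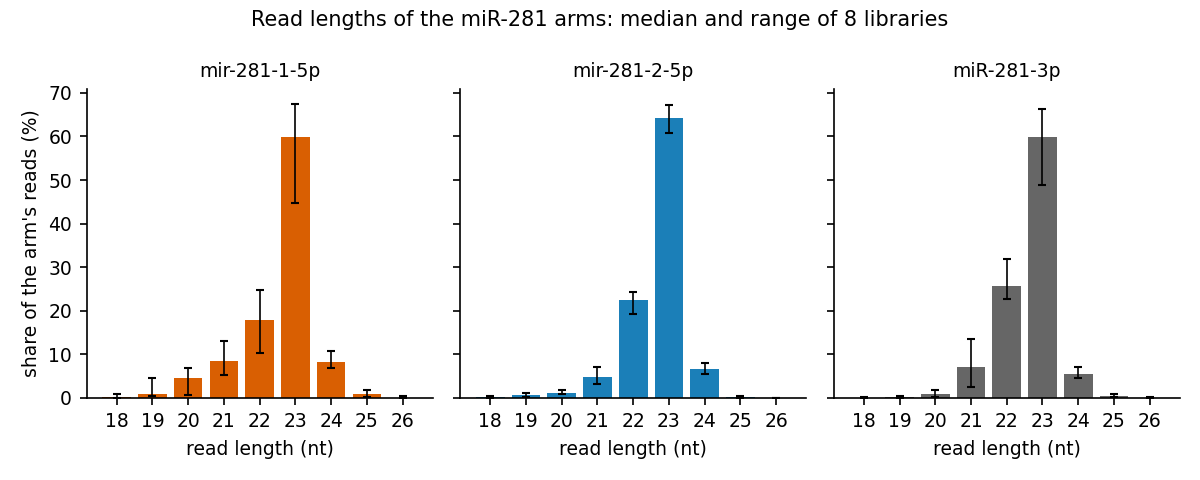
Share of each arm's reads (%) by read length (nt) for mir-281-1-5p, mir-281-2-5p and miR-281-3p. Columns are the median of 8 libraries and bars run from the lowest to the highest library. All 3 arms peak at 23 nt, and reads of 19 to 21 nt are more common in mir-281-1-5p than in mir-281-2-5p.

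With the same peak length and starts 1 base apart, the 3' ends fall on different bases. The last base of a read was inferred as its start plus its length minus 1, which assumes that no untemplated bases were added, a point the tables do not show. A median of 60.0% of mir-281-1-5p reads (44.8 to 67.5% over the libraries) ended at position 36, the last base before the listed loop, as annotated. Only 22.5% of mir-281-2-5p reads ended there (19.2 to 24.4%). Most of them (64.3%) ended at position 37, so the common mir-281-2-5p read was 1 nt longer than the annotated arm.

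Reads that ended past position 36 made up 70.3% of mir-281-2-5p (68.0 to 75.4%) and 9.58% of mir-281-1-5p (7.57 to 11.7%). Because the starts are 1 base apart, these are reads of 23 nt or longer in the former and of 24 nt or longer in the latter. With the shared peak at 23 nt, the listed starts set this gap, and it is not a separate result. Reads that ended before position 36 made up 7.19% of mir-281-2-5p (4.16 to 9.41%) and 30.3% of mir-281-1-5p (23.9 to 47.6%). These too are unlike lengths, 21 nt or shorter in the former and 22 nt or shorter in the latter. On average a mir-281-1-5p read ended 1.13 bases before a mir-281-2-5p read in the median library. Taken per library this distance ran from 0.983 in 81161 to 1.44 in 81155, of which 1 base is the difference in start.

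**Figure D3:**
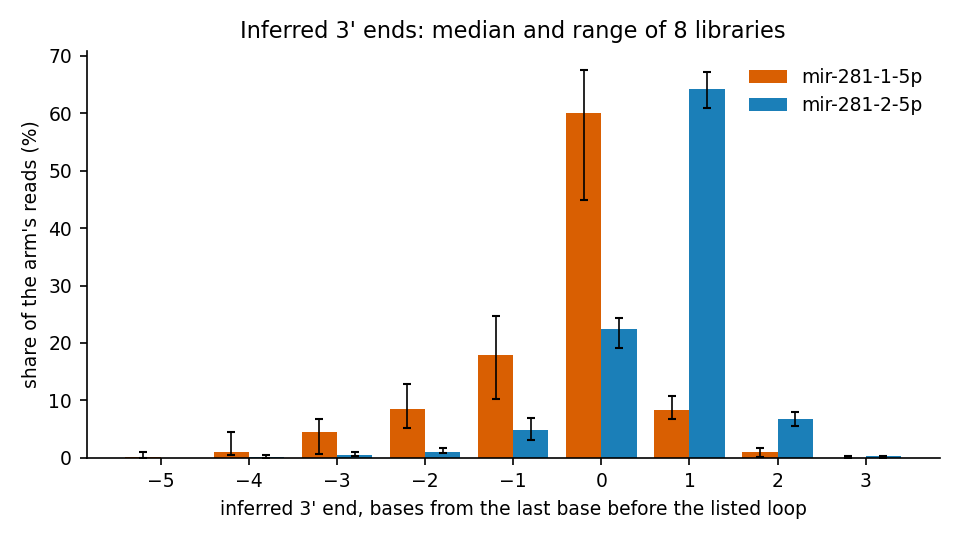
Share of reads (%) by inferred 3' end, in bases from the last base before the listed loop (0), for mir-281-1-5p and mir-281-2-5p. Columns are the median of 8 libraries and bars run from the lowest to the highest library. The most common end of mir-281-1-5p is at 0 (60.0%) and that of mir-281-2-5p is 1 base further (64.3%).

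The mean length of mir-281-1-5p was 22.40 ± 0.05, 22.19 ± 0.06, 22.73 ± 0.04, 22.65 ± 0.05, 22.47 ± 0.08, 22.48 ± 0.08, 22.74 ± 0.06 and 22.68 ± 0.10 nt, each with its counting SE. It was lowest in library 81155, and the range over the libraries was 0.549 nt. For mir-281-2-5p the mean lengths were 22.64, 22.63, 22.76, 22.74, 22.63, 22.66, 22.75 and 22.66 nt in the same order, each with an SE of 0.02 to 0.03 nt, and the range was 0.130 nt. A range of at least 0.5 nt was found in 12 of the 100 arms (12%), a limit which mir-281-1-5p exceeded and mir-281-2-5p did not. The arms nearest that limit were miR-275-3p just inside at 0.514 nt and miR-2c-3p just outside at 0.498 nt, and the median range was 0.210 nt. The range of mir-281-1-5p fell below the limit without library 81155 (0.345 nt) and over lengths of 20 to 26 nt (0.383 nt). This arm also had the fewest reads in its thinnest library (117) of all 100 arms.

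Within a library the paralogs could be set against each other directly. mir-281-1-5p was shorter than mir-281-2-5p by a mean of 0.439 nt in library 81155 (counting interval 0.322 to 0.556), which was the widest gap. The difference, mir-281-1-5p minus mir-281-2-5p, was -0.247 nt in 81154 (-0.352 to -0.141), -0.166 in 81158 (-0.321 to -0.0113) and -0.179 in 81159 (-0.336 to -0.0233). In the other 4 libraries it was -0.0361 in 81156 (-0.120 to 0.0475) and -0.0904 in 81157 (-0.197 to 0.0164). It was -0.0080 in 81160 (-0.143 to 0.127) and 0.017 in 81161 (-0.189 to 0.222). By these values the gap was wider in 81154, 81155, 81158 and 81159 than in the other 4. The intervals of the other 4 all included 0, and all overlapped those of 81158 and 81159. Those of 81157, 81160 and 81161 overlapped that of 81154 too. The intervals describe counting error and are not a test.

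The shares of several lengths varied over the libraries. In mir-281-1-5p the share of 23 nt ranged by 22.7 percentage points and that of 22 nt by 14.4. The share of 21 nt or shorter ranged by 15.3. Reads of 21 nt or shorter made up 19.2% of mir-281-1-5p in library 81154 (interval 16.0 to 22.9%), 22.9% in 81155 (19.4 to 26.8%), 9.85% in 81156 (7.73 to 12.5%) and 11.8% in 81157 (8.88 to 15.4%). The share was 19.2% in 81158 (15.0 to 24.4%), 19.2% in 81159 (14.5 to 25.1%), 7.60% in 81160 (4.50 to 12.6%) and 13.7% in 81161 (8.60 to 21.1%). These shares rest on 13 to 115 short reads per library. They were above 19% in 81154, 81155, 81158 and 81159 and below 14% in the other 4, but the interval of 81161 overlapped those of all 4 higher libraries and that of 81157 those of 81158 and 81159.

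In mir-281-2-5p the same class made up 7.39, 7.64, 5.38, 5.76, 9.41, 7.16, 4.16 and 7.22%. Libraries 81156, 81157 and 81160 were lowest here too, while 81161 lay within the range of the others. In 8 of 8 libraries the share was larger in mir-281-1-5p, by 1.83-fold in 81160 to 3.00-fold in 81155.

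**Figure D4:**
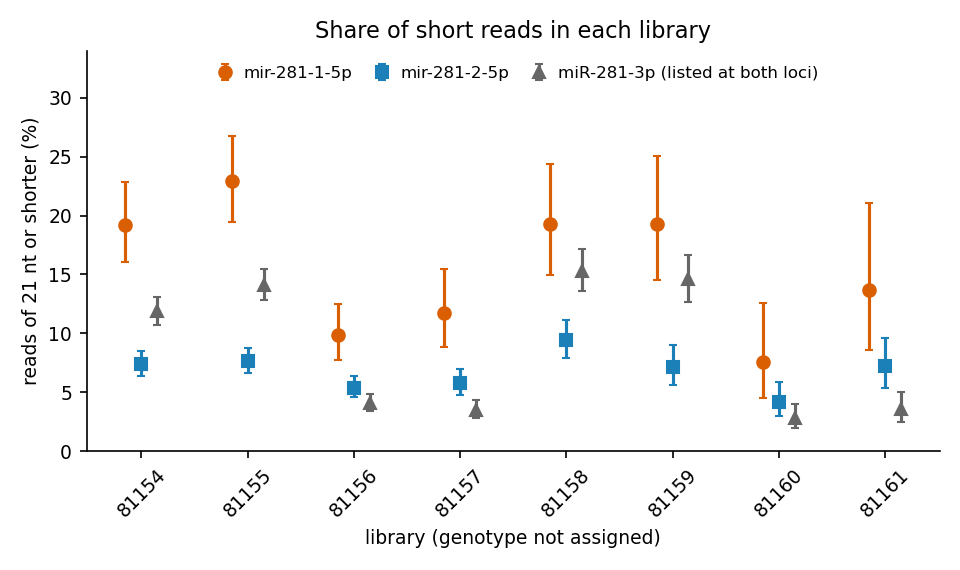
Share of reads of 21 nt or shorter (%) in mir-281-1-5p, mir-281-2-5p and miR-281-3p in each of the 8 libraries, with 95% Wilson intervals. miR-281-3p stands at 11.9 to 15.3% in libraries 81154, 81155, 81158 and 81159 and at 2.78 to 4.05% in the others, and mir-281-1-5p is higher in the same 4 libraries.

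miR-281-3p, whose lengths were not among the values that chose the arms, separated the libraries most clearly of the miR-281 arms. It was measured on 820 to 2966 reads per library. Its share of 21 nt or shorter was 11.9% in library 81154, 14.1% in 81155, 15.3% in 81158 and 14.6% in 81159. It was 4.05% in 81156, 3.46% in 81157, 2.78% in 81160 and 3.54% in 81161. The lowest of the former had an interval of 10.7 to 13.1% and the highest of the latter one of 3.39 to 4.82%. Its mean length ranged by 0.339 nt, from 22.46 nt in 81155 to 22.80 nt in 81160. miR-34-5p, the best known substrate of Nibbler, was set beside it after the values had been seen. Its mean length was 22.24 to 22.57 nt in 81154, 81155, 81158 and 81159, and 23.74 to 23.89 nt in the other 4. The libraries with more short reads of mir-281-1-5p and miR-281-3p were thus those in which miR-34-5p was short. No genotype is attached to them, so whether this division is one of Nbr was not tested.

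By mean length over the 8 libraries the arms most like mir-281-1-5p were miR-317-3p (Pearson's r = 0.955), miR-988-3p (0.954) and miR-277-3p (0.954). For mir-281-2-5p they were miR-281-3p (0.840), miR-33-5p (0.834) and miR-996-3p (0.826). Between the paralogs r was 0.799. This put mir-281-2-5p in place 37 among the arms most like mir-281-1-5p, and mir-281-1-5p in place 11 for mir-281-2-5p. The mean length of mir-281-2-5p ranged by 0.130 nt with SEs of up to 0.0335 nt, so its coefficients rest on small differences.

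**Figure D5:**
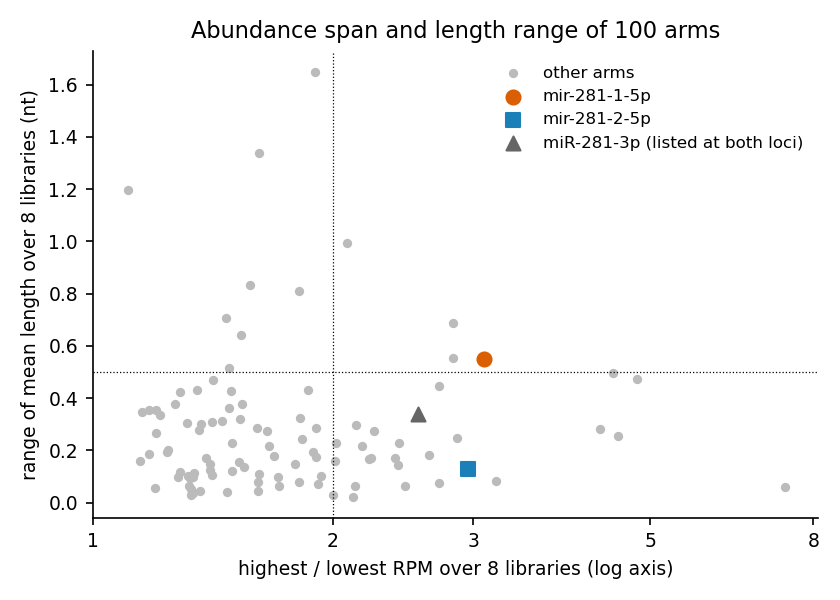
Abundance span (highest over lowest RPM, log axis) and range of mean length (nt) over 8 libraries for 100 arms, with dotted lines at 2-fold and 0.5 nt. mir-281-1-5p (3.09-fold, 0.549 nt) lies beyond both lines, mir-281-2-5p (2.96-fold, 0.130 nt) and miR-281-3p (2.55-fold, 0.339 nt) only beyond the first.

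Of the 40 star arms among the 100, 12 spanned 2-fold or more, and 2 had a length range of 0.5 nt or more, mir-281-1-5p being one of these. The median range of the star arms was 0.172 nt. By median level mir-281-2-5p took place 28 and mir-281-1-5p place 39 of these 40. Reads of the class the authors mark tc, taken as T-to-C mismatches, made up 0.225% of the reads of all arms. They numbered 1 of 2761 reads for mir-281-1-5p (0.0362%, interval 0.00639 to 0.205%) and 8 of 12546 for mir-281-2-5p (0.0638%, 0.0323 to 0.126%). For miR-281-3p they were 18 of 15279 (0.118%). This arm is listed with 7 T bases against 3 for each 5p arm. The shares are per read and not per T, so they do not compare the arms. No library held more than 2 such reads of a 5p arm, so the shares were not compared between libraries.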

How the data were processed

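The deposited tables were used as they stand. Per the submitters' processing notes, cutadapt 1.7.1, Bowtie 1.2.2, Picard and genome build dm6 were used. How mismatches, multi-mapping reads and filters were handled is not stated there. One deposited table holds other values, whole-number totals of small RNA and miRNA reads per library. The other tables hold a deposited signal per arm and start position, in total and by length. It was read as RPM because values times the library's small RNA total were whole numbers of reads, to within 0.001, on 100% of lines. The deposited score is the authors' average over libraries.

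For each line, reads, mean length and shares were computed with matplotlib 3.10.9, scipy 1.17.1, numpy 2.4.6 and pandas 2.3.3 under Python 3.11.15. Wilson and exact (Clopper-Pearson) 95% intervals and SEs cover counting error only, since amplified reads are not independent molecules. A count of 0 allows up to 3 reads, which correspond to 0.0910 to 0.175 RPM over the libraries. The calculation was tested on drawn reads of known lengths. For the count of 100 arms, repeated loci with the same first letters kept the line with most reads. Positions come from the BDGP6 annotation of Ensembl release 115, which holds 174 of the 177 gene IDs in the tables.

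The arms and measures were chosen with earlier results of these data known. The text names both 5p arms, the other lines of their hairpins and the 3 arms most like each in abundance and in length. miR-34-5p, the arms nearest a limit, the mir-2b arms set beside the ratios and the other hairpins with high ratios of star to mature were named after their values were seen. The planned limma fit between genotypes was not run, because no library matches a label. The sequences of these arms are not shown here.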

Additional observations from a re-analysis of the deposited data

How the results depend on the processing

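No paired analysis was possible because neither a genotype nor a replicate number is known for any library, and the fit between genotypes with its blocked alternative was not run. Every other alternative lay within the counting interval of its result, except the length range of mir-281-1-5p without library 81155. The spans of mir-281-1-5p and mir-281-2-5p, 3.09-fold and 2.96-fold, became 2.94-fold and 2.91-fold per miRNA read, 2.82-fold and 2.80-fold with median-of-ratios size factors, and 2.72 to 3.09-fold and 2.81 to 2.96-fold with a library left out. The length range of mir-281-1-5p, 0.549 nt, became 0.383 nt over 20 to 26 nt, which is below 0.5 nt, 0.551 nt without tc reads and 0.345 to 0.549 nt with a library left out, the lowest without 81155. For mir-281-2-5p, 0.130 nt became 0.119 nt, 0.130 nt and 0.119 to 0.130 nt. The median ratio of mir-281-1-5p to mir-281-2-5p, 0.214, was 0.211 over 20 to 26 nt, 0.214 without tc reads and 0.213 to 0.215 with a library left out. The inferred end of mir-281-1-5p minus that of mir-281-2-5p, -1.13 bases, was -1.08 over 20 to 26 nt and -1.17 to -1.09 with a library left out, both chosen after seeing the data. Summing start positions changed nothing, since each arm has 1 line. Depth limits mir-281-1-5p most, with 117 reads in library 81161.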
